A study of Mus musculus with 6 samples.

Results

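CC chemokines are small secreted proteins named for a pair of adjacent cysteines near the start of the mature protein. They bind seven-transmembrane CC receptors, most of which sit on leukocytes, and so direct where monocytes, eosinophils, T cells and dendritic cells go in inflamed tissue and in tumours. Tumour cells and the fibroblasts around them are known sources of monocyte-attracting members and of eotaxin. The 10 genes described here, Ccl2, Ccl5, Ccl7, Ccl8, Ccl9, Ccl11, Ccl12, Ccl17, Ccl20 and Ccl25, were taken by symbol from a table of 54532 mouse genes. All 10 were found there.

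Poly-A RNA was sequenced from MC38 tumours, which grow from a mouse colon cancer line placed under the skin of wild-type C57BL/6 mice. There were 3 libraries from tumours with an unedited Npm1 gene and 3 from tumours in which Npm1, the gene of the nucleolar protein nucleophosmin, was knocked out by CRISPR/Cas9. In both groups CD45 microbeads were used so that the cells sequenced were CD45-negative, which leaves tumour cells together with the host's fibroblasts, vessel cells and other non-leukocytes. The labels give no guide, no clone, no age or sex of the mice, and do not say whether replicates were separate animals, so the p-values measure the spread between these libraries, which may be technical. In such a bulk sample, fewer cells of a type and less RNA per cell cannot be told apart.

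Fragments recovered from the deposited values numbered 16917778 to 18662688 per library. Npm1 stood at 234, 169 and 195 FPKM in wild type; knockout values were 191, 159 and 128 FPKM (log2 difference -0.33, limma adjusted p = 0.268). The groups overlapped, so the transcript does not check the labels. On the main principal component of all tested genes, knockout replicate 3 lay between the wild-type libraries and the other knockout libraries. Epithelial markers were near 0 in both groups: the 9 genes of that list summed to 2.20 to 2.76 FPKM in wild type and 1.59 to 2.37 FPKM in the knockout, with Epcam, a surface protein of colon epithelium, at 0 to 0.03 FPKM. The fibroblast-type collagen gene Col3a1 reached 1383 FPKM. The labelled cell type, colon cancer cells, was thus not marked by the transcripts of that epithelial list. Krt14, a keratin of the separate keratinocyte list, reached 435 FPKM.

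Ccl2, Ccl7, Ccl11, Ccl12 and Ccl8 follow one another on the plus strand of chromosome 11, from 82035571 at the start of Ccl2 to 82116799 at the end of Ccl8 (GRCm38). Gaps of 8258 bases separate Ccl2 from Ccl7, 10297 bases Ccl7 from Ccl11, 38889 bases Ccl11 from Ccl12 and 11784 bases Ccl12 from Ccl8. Each line below gives 60 bases of coding sequence from GENCODE vM21, 5′ to 3′, with the adjacent cysteine codons that define the family in capitals. They are shown because these are the homologues whose levels the results compare.
Ccl2: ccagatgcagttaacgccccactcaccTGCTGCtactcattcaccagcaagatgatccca
Ccl7: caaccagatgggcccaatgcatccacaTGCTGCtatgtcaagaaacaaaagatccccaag
Ccl11: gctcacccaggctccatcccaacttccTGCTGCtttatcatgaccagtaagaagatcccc
Ccl12: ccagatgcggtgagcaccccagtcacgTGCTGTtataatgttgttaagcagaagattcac
Ccl8: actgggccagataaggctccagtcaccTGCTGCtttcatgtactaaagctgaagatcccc

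The cysteine codons were TGCTGC in Ccl2, Ccl7, Ccl11 and Ccl8 and TGCTGT in Ccl12. Over the whole coding sequence, Ccl7 and Ccl11 were 66.3% identical, Ccl7 and Ccl8 64.7%, and Ccl8 and Ccl11 63.0%. Ccl2, whose coding sequence is longer at 444 bases against 291 in Ccl7, Ccl8 and Ccl11, was 46.2% identical to Ccl7 and 46.3% identical to Ccl11. Alignment gaps count as differences in every identity given here, so the extra bases of Ccl2 lower its values. They do not show that Ccl2 is less alike over the aligned bases. The longest exact run shared by transcripts of any pair among the 10 members was 23 bases, between Ccl2 and Ccl7.

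Levels differed widely among members. FPKM is a number of fragments scaled to gene length and library size, so members can be ranked by it as far as the length in the table fits the transcript. For Ccl25 the table's length is far above that of its coding transcripts, so its place in the order, and its distance from Ccl5, rest on that length. The length given for Ccl5, 960 bases, is also above the 532 bases of its longest coding transcript. For Ccl9 the lengths are close, at 3045 and 3006 bases, so the order of Ccl9 and Ccl5 rests on the lengths used. Ccl2 was highest with a mean of 1028 FPKM over the 6 libraries, followed by Ccl7 (381 FPKM), Ccl8 (16.6 FPKM), Ccl11 (11.5 FPKM), Ccl9 (2.57 FPKM), Ccl5 (2.46 FPKM) and Ccl25 (1.18 FPKM). Ccl12 (0.143 FPKM), Ccl17 (0.132 FPKM) and Ccl20 (0.0128 FPKM) came last. Ccl2 and Ccl7 together made up 95.2 to 99.2% of the summed FPKM of the 10 members in every library.

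Ranges over the 6 libraries were apart between Ccl2 and Ccl7, Ccl7 and Ccl8, Ccl5 and Ccl25, and Ccl25 and Ccl12. They overlapped between Ccl8 and Ccl11, Ccl11 and Ccl9, Ccl9 and Ccl5, Ccl12 and Ccl17, and Ccl17 and Ccl20, taking both groups together. Within groups some of these neighbours were apart: Ccl8 above Ccl11 and Ccl9 above Ccl5 in wild type, and Ccl11 above Ccl9 in the knockout. That Ccl9 stood above Ccl5 depends on the gene lengths used for FPKM. The ranges of Ccl12 and Ccl17, and of Ccl17 and Ccl20, overlapped in each group, so those neighbours did not differ beyond their spread.

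**Figure D1:**
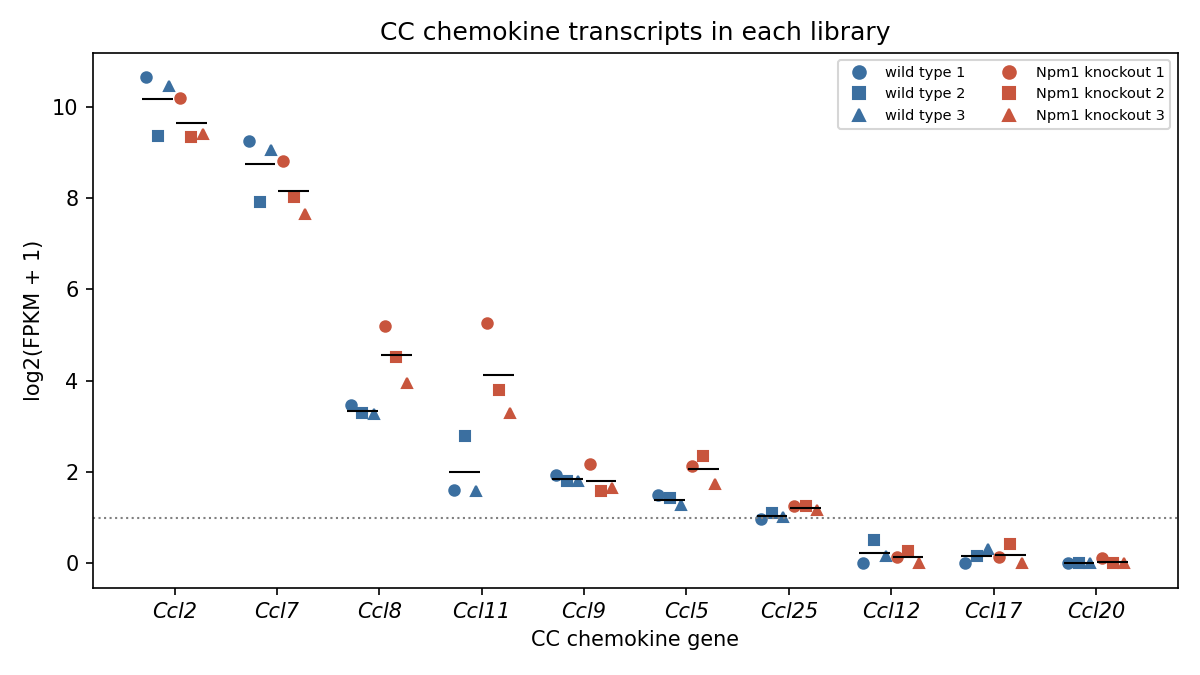
Level of each CC chemokine gene as log2(FPKM + 1), with 1 point per library, blue for wild type and red for Npm1 knockout, and bars at the group means of the log values. The dotted line marks 1 FPKM. Ccl8, Ccl11, Ccl5 and Ccl25 have all knockout points above all wild-type points, though Ccl25 did not pass the test. Ccl2 and Ccl7 overlap, and Ccl12, Ccl17 and Ccl20 lie below the line.

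The comparison asked which transcripts differ between tumours labelled Npm1 knockout and wild-type tumours. Ccl11 (eotaxin, which attracts eosinophils through Ccr3), Ccl8 (in mouse a ligand of Ccr8, found on some T cells) and Ccl5 (which attracts T cells) were higher in the knockout. Mean levels went from 3.31 to 19.7 FPKM for Ccl11, 9.14 to 24.1 FPKM for Ccl8 and 1.64 to 3.28 FPKM for Ccl5 (n = 3 each). The monocyte attractants Ccl2 and Ccl7, both Ccr2 ligands, did not pass the test. Of the 7 members tested, 3 rose and 0 fell, where 14.2% of the 11287 genes tested changed (5.91% rose and 8.3% fell). Groups did not overlap, with the knockout higher, for 4 of the 7, against 16.0% of all genes tested; 35.6% did not overlap in either direction and 19.6% with the knockout lower. A trend of level with transcript length and GC content was also estimated in each library. How far the differences between groups followed it was not tested. After subtracting that trend in each library, 0 members passed, where 1.72% of 11269 genes did (0.692% higher and 1.03% lower). The median log2 difference was 0.20 over the 7 members and 0.02 over all genes tested. After the subtraction the medians were -0.22 and 0.01. Both medians of the members are the value of Ccl25, and no other tested member changed sign with the subtraction.

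Ccl11 (ENSMUSG00000020676) was measured at 2.04, 5.90 and 1.99 FPKM in wild-type replicates 1, 2 and 3, which is 42, 110 and 35 fragments. In knockout replicates 1, 2 and 3 it was at 37.4, 12.9 and 8.86 FPKM, or 739, 247 and 180 fragments. Every knockout library was above every wild-type library, but the groups were widely spread, with knockout replicate 1 the highest and wild-type replicate 2 well above the other wild-type libraries. Group means were 3.31 ± 2.24 and 19.7 ± 15.4 FPKM (SD, n = 3 each). On the log2(FPKM + 1) scale, which understates changes of low genes, the difference came to 2.13 (SE 0.47, limma adjusted p = 0.0220), with a 95% interval of 1.09 to 3.17.

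The Ccl11 call at a threshold of 0.05 ended without knockout replicate 1 (log2 1.56, limma adjusted p = 0.0672), wild-type replicate 1 (1.94, 0.0546) or wild-type replicate 3 (1.93, 0.0884). Calls were also lost across the whole table. Without wild-type replicates 1, 2 and 3, 1369, 890 and 7 of the 11287 genes tested passed, against 1604 with all libraries. Without knockout replicates 1, 2 and 3, 88, 209 and 2805 passed. A lost call, here and below, is to be read beside these counts. With the trend subtracted, the Ccl11 difference was 1.65 (SE 0.45, limma adjusted p = 0.0796).

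Ccl8 (ENSMUSG00000009185) was steady in wild type, at 9.998, 8.74 and 8.67 FPKM (97, 77 and 72 fragments). Knockout replicates 1, 2 and 3 held 35.7, 22.1 and 14.5 FPKM (333, 199 and 139 fragments). The lowest knockout library was above the highest wild-type library, and the knockout libraries stood in the same order as for Ccl11. Group means were 9.14 ± 0.747 and 24.1 ± 10.7 FPKM (SD), and the log2 difference came to 1.22 (SE 0.26, limma adjusted p = 0.0209) with a 95% interval of 0.64 to 1.81. The call ended without wild-type replicate 3 (limma adjusted p = 0.0836), knockout replicate 1 (0.0710) or knockout replicate 2 (0.0545), and with the length and GC trend removed (log2 0.82, limma adjusted p = 0.0722).

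Ccl5 (ENSMUSG00000035042, chromosome 11, 83525778 to 83530518, minus strand) lay in a second chemokine cluster. It was low, at 1.81, 1.69 and 1.41 FPKM in wild type (33, 28 and 22 fragments) and 3.37, 4.13 and 2.33 FPKM in the knockout (59, 70 and 42 fragments). The groups did not overlap, and knockout replicate 2 rather than replicate 1 was highest. On the log2 scale Ccl5 was 0.68 higher (SE 0.19, limma adjusted p = 0.0394), with a 95% interval of 0.27 to 1.09. That call was the least stable of the 3: it held without knockout replicate 3 and ended without any other library (limma adjusted p = 0.0553 to 0.164), after rescaling to TPM (0.0811), with limma-voom on recovered fragments (0.0668) and with the trend removed (log2 0.38, limma adjusted p = 0.169).

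Ccl2 (ENSMUSG00000035385) was among the abundant transcripts, at 1604, 661 and 1415 FPKM in the wild-type group, with 1168, 647 and 674 FPKM in the knockout group. Wild-type replicate 2 lay with knockout replicates 2 and 3, and knockout replicate 1 lay near the other wild-type libraries, so the groups overlapped. The means were 1227 ± 499 and 830 ± 293 FPKM, which is -0.52 on the log2 scale (SE 0.36, limma adjusted p = 0.330) with a 95% interval of -1.31 to 0.27.

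Ccl7 (ENSMUSG00000035373), the neighbour of Ccl2, was at 611, 241 and 528 FPKM in wild-type libraries, against 448, 260 and 199 FPKM in knockout libraries. The groups overlapped, and wild-type replicate 2 was again the low wild-type library. Its estimate was -0.58 on the log2 scale (SE 0.37, limma adjusted p = 0.303), with a 95% interval of -1.41 to 0.25. After trend removal the differences were -0.93 for Ccl2 and -1.05 for Ccl7 without passing (limma adjusted p = 0.148 and 0.122). Both passed as lower when wild-type replicate 2 was left out as well (-1.34 and -1.47, limma adjusted p = 0.0302 and 0.0246). In that setting 533 of 11269 genes passed, 369 of them lower. Leaving out any other library instead gave no call (limma adjusted p = 0.226 to 0.362 for Ccl2, 0.194 to 0.291 for Ccl7).

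Within each library, Ccl2 stood in a narrow ratio to Ccl7: 2.63, 2.74 and 2.68 in the wild-type group, with 2.61, 2.49 and 3.38 in the knockout group. Knockout replicate 3 had the highest ratio. Ccl11 behaved otherwise. Per 1000 FPKM of Ccl2 there were 1.27, 8.92 and 1.41 FPKM of Ccl11 in wild-type libraries, against 32.0, 20.0 and 13.1 in knockout libraries, with no overlap. Ccl8 reached 6.23, 13.2 and 6.13 FPKM per 1000 FPKM of Ccl2 in wild-type libraries, and knockout libraries held 30.6, 34.1 and 21.5, again with no overlap.

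Ccl11 was also set against the median of the other 6 tested members inside each library, on the log2(FPKM + 1) scale. That median was the midpoint of Ccl8 and Ccl9, or of Ccl8 and Ccl5 in knockout replicates 2 and 3. Ccl8 and Ccl5 were themselves called higher, and the value is no comparison with the abundant Ccl2 and Ccl7. Wild-type libraries gave -1.09, 0.25 and -0.96, and knockout libraries gave 1.58, 0.36 and 0.46. Wild-type replicate 2 was near the lower knockout libraries without reaching them. The difference between groups was 1.40, with p = 0.1 in an exact two-sided permutation test, which is the smallest p that 3 against 3 allows.

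**Figure D2:**
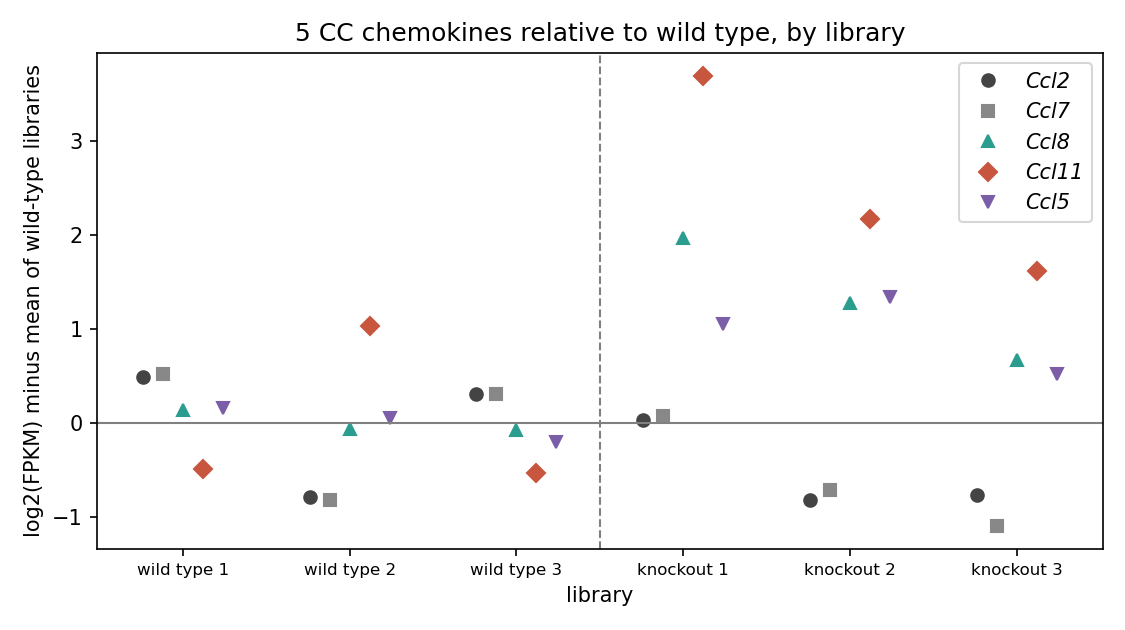
Level of 5 CC chemokines in each library as log2(FPKM) minus the mean over the wild-type libraries, with 1 point per gene and library. Ccl2 and Ccl7 lie close together in each library (-0.79 and -0.82 in wild-type replicate 2) except knockout replicate 3 (-0.76 and -1.10). Ccl11 is at 1.03 in wild-type replicate 2, 1.62 in knockout replicate 3 and 3.70 in knockout replicate 1.

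Ccl9, a mouse ligand of Ccr1, did not pass, at 2.82, 2.48 and 2.51 FPKM in the wild-type group, with 3.49, 2.01 and 2.13 FPKM in the knockout group. The knockout libraries lay on both sides of the wild-type ones (log2 difference -0.05, 95% interval -0.45 to 0.36, limma adjusted p = 0.879). Ccl25, which attracts Ccr9-bearing thymocytes and gut lymphocytes, stood at 0.948, 1.14 and 1.02 FPKM in wild-type libraries, against 1.39, 1.38 and 1.23 FPKM in knockout libraries.

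The Ccl25 groups did not overlap, but the log2 difference of 0.20 (95% interval -0.13 to 0.53) did not pass (limma adjusted p = 0.376) and its sign turned to -0.22 after trend removal. The table gives Ccl25 a length of 7445 bases, against 1058 bases for its longest coding transcript in GENCODE, so its FPKM is low for its 946 fragments. Its first bases overlap Elavl1 on the opposite strand, and the strand setting of the counting is not given in the sources used here, so fragments of the overlap cannot be told apart. Ccl2 overlaps the opposite-strand gene Gm17268, which was listed at 0 in all libraries.

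Ccl12, a mouse Ccr2 ligand, had 0, 4 and 1 fragments in the wild-type libraries, against 1, 2 and 0 in those of the knockout. Ccl17, a Ccr4 ligand made by dendritic cells, had 0, 1 and 2 fragments and 1, 3 and 0. Ccl20, a Ccr6 ligand of mucosal epithelium, had 2 fragments in knockout replicate 1 and 0 elsewhere. These members were under the filter of a mean of at least 1 FPKM and were not tested. A count of 0 allows up to 3 fragments, which is 0.294 to 0.344 FPKM for Ccl12, 0.307 to 0.359 FPKM for Ccl17 and 0.111 to 0.130 FPKM for Ccl20, counting error only.

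Ccl8 and Ccl12 are direct neighbours with coding sequences 64.4% identical, yet Ccl8 had 917 fragments over the 6 libraries and Ccl12 had 8. Their upstream regions are shown for that contrast, as RefSeq gives them for GRCm38.p6: the 250 bases before the start site on the plus strand, chr11:82114935-82115184 for Ccl8 and chr11:82101595-82101844 for Ccl12. Capitals mark the TATA motif TATAAA.
Ccl8: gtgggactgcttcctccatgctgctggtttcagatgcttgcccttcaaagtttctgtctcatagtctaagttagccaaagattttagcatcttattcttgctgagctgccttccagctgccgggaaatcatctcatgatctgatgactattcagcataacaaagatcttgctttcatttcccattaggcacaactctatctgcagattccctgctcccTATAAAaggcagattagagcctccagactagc
Ccl12: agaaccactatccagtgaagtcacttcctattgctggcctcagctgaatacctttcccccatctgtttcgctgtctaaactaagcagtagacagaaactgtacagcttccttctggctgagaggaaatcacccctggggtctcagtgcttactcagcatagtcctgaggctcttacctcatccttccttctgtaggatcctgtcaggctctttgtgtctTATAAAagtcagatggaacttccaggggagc

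Both held TATAAA, from base -32 to -27 before the start site in Ccl8 and from -31 to -26 in Ccl12, as did 12.4% of 32851 upstream regions of that length on either strand. The windows were 55.6% identical. The NF-kB consensus, the STAT6 consensus and TTCNNNGAA (other STAT factors) were searched on both strands and had no match in either window; they were present in 7.25%, 5.85% and 7.02% of all regions. Of the 10 members, 6 had an entry in the table of upstream regions: Ccl8, Ccl9, Ccl12, Ccl17, Ccl20 and Ccl25. A match or its lack describes these letters and shows no binding.

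**Figure D3:**
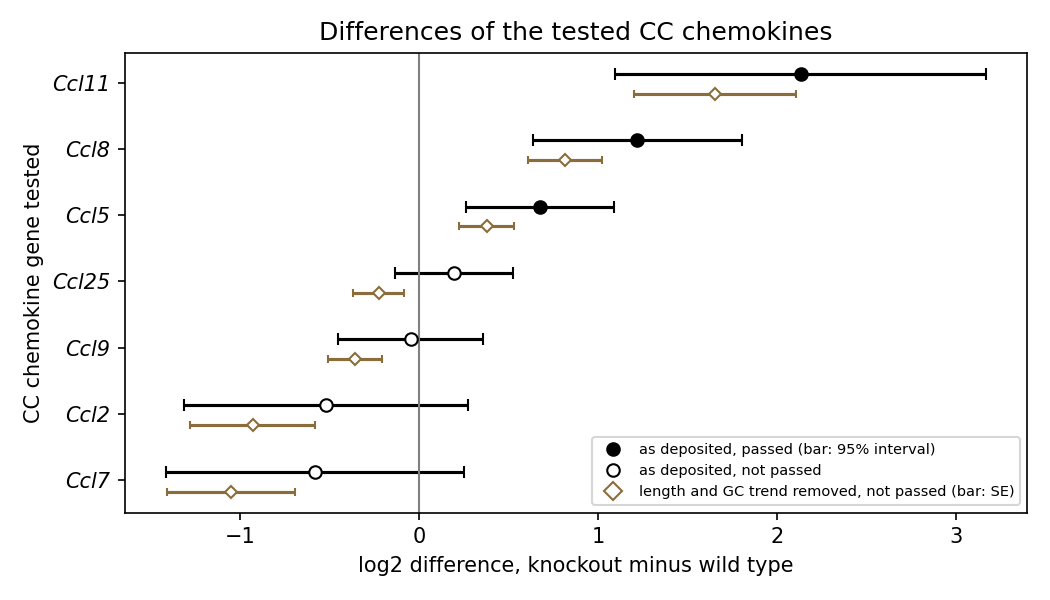
Log2 difference, knockout minus wild type, of the 7 tested members on the log2(FPKM + 1) scale. Circles with 95% intervals are from the deposited values, filled where limma adjusted p was under 0.05, and diamonds with standard errors are after trend removal. Ccl11, Ccl8 and Ccl5 lie above 0 both ways (2.13, 1.22 and 0.68, then 1.65, 0.82 and 0.38), and Ccl25 changes sign.

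By the root mean square distance between centred log2(FPKM + 1) profiles over the 6 libraries, the 5 genes most like Ccl11 among 10033 other protein-coding genes were Clec3b (distance 0.57), Dpt (0.62), Sarnp (0.63), Ccl8 (0.67) and Serpina3n (0.70). Clec3b encodes tetranectin and Dpt the matrix protein dermatopontin. Ccl8 was thus the fourth nearest to Ccl11 of the protein-coding genes tested, whereas Ccl5 ranked 434, Ccl25 2762, Ccl9 3907, Ccl2 9110 and Ccl7 9247. The distance uses the same libraries as the comparison above and carries no test. Serpina3n has close paralogs among which fragments can be split, so its value is uncertain.

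Marker transcripts of other cells were set beside these differences. Of 11 fibroblast markers 10 were tested. Dpt, Dcn and Pi16 rose and Col1a1 fell, where 5.91% of all genes tested rose and 8.3% fell. The median log2 difference of the 10 was 0.006, against 0.02 over all genes tested. After trend removal these medians were 0.16 and 0.01. The summed level of the 11 markers was 1167 to 1744 FPKM in wild type and 1547 to 1729 FPKM in the knockout. Dcn, the matrix proteoglycan decorin, stood at 89.2, 68.4 and 78.0 FPKM in wild type and at 299, 144 and 163 FPKM in the knockout. After trend removal Dpt (1.98) and Pi16 (1.75) still passed, while Dcn (0.90, limma adjusted p = 0.0722) and Col1a1 (-1.16 from -1.88, limma adjusted p = 0.146) did not. Without wild-type replicate 3, Dcn (0.0772), Pi16 (0.0584) and Col1a1 (0.0894) had limma adjusted p-values above 0.05, as did Dcn (0.0534) and Col1a1 (0.0848) without knockout replicate 1, and Col1a1 without wild-type replicate 2 (0.0502). Red cell markers summed to 1.46 to 22.5 FPKM in wild type and 12.8 to 81.2 FPKM in the knockout, with 0 of 3 tested genes passing. Pericyte markers were lower in sum (51.3 to 67.1 FPKM, then 31.9 to 38.5 FPKM). Of 4 tested, Cspg4 (-1.18), Notch3 (-0.96) and Mcam (-0.75) fell, where 8.3% of all genes tested fell. After trend removal these were at -0.28, -0.07 and -0.62 and none of the 3 passed (limma adjusted p = 0.222, 0.815 and 0.0801). None of them passed without wild-type replicate 3 or knockout replicate 1 either, Notch3 and Mcam did not without knockout replicate 2, and Mcam did not without wild-type replicate 2. Keratinocyte markers, mostly Krt14, summed to 265 to 379 FPKM and 329 to 437 FPKM, and 0 of 2 tested passed. The part of any of these cells in the chemokine differences was not tested.

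Leukocyte transcripts were scarce. The cells were prepared as CD45-negative, so the values below do not describe leukocytes in the tumours. The 5 pan-leukocyte markers summed to 0.595 to 1.12 FPKM in wild type and 0.328 to 0.855 FPKM in the knockout, and none reached the filter. Macrophage markers summed to 4.45 to 13.2 FPKM and 4.87 to 8.11 FPKM, and 0 of 3 tested passed. T and NK cell markers summed to at most 0.202 FPKM, with Cd3e and Cd4 at 0 in all libraries. Among the 8 eosinophil markers, 6 were at 0 in all libraries, including Siglecf, Epx and the eotaxin receptor Ccr3, and the sum was at most 0.0653 FPKM. Dendritic markers summed to 1.84 to 6.00 FPKM and 1.04 to 1.58 FPKM, of which Zbtb46 fell (log2 -1.13, limma adjusted p = 0.0371) and Flt3 was at 0. Zbtb46 was the 1 gene of the list tested, and it reached 5.73 FPKM, most of the sum in that library. The Zbtb46 call ended after trend removal (-0.86, limma adjusted p = 0.153) and without any library but wild-type replicate 2 (limma adjusted p = 0.0568 to 0.125). Endothelial markers were low, summing to 1.99 to 4.97 FPKM in wild-type libraries and 0.939 to 1.798 FPKM in knockout libraries without overlap; 0 reached the filter, so none was tested.

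The receptors of these ligands were close to absent from the CD45-negative cells. Of 11 CC receptor genes 0 passed the filter, and Ccr3, Ccr4, Ccr6, Ccr8 and Ccr1l1 were at 0 in all libraries. Of the 13 CC ligands outside the 10 members, Ccl27a alone was tested; this skin-type ligand was at 2.85 ± 0.188 and 4.22 ± 1.03 FPKM and did not pass (log2 0.42, limma adjusted p = 0.127). Among 5 atypical receptors, Ackr3, best known as a scavenger of CXC ligands, was at 111 ± 17.3 and 127 ± 40.6 FPKM (limma adjusted p = 0.659). Ccrl2, which binds chemerin, was at 1.97 ± 0.468 and 2.37 ± 0.0104 FPKM (limma adjusted p = 0.424).

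Genes of the signals known to induce eotaxin did not move one way. Of 9 tested, 1 rose and 2 fell, where 5.91% of all genes tested rose and 8.3% fell. The median log2 difference was -0.14 against 0.02 over all genes tested. Il13ra1, a receptor chain for IL-13, rose from 2.77 ± 0.163 to 4.48 ± 0.400 FPKM (log2 0.54, limma adjusted p = 0.0373). Il4ra, the chain shared by the IL-4 and IL-13 receptors, fell from 13.1 ± 1.96 to 7.96 ± 0.935 FPKM (-0.65, 0.0283), and the TNF receptor Tnfrsf1b fell from 78.0 ± 26.6 to 34.5 ± 0.280 FPKM (-1.09, 0.0209). The other TNF receptor, Tnfrsf1a, differed by -0.26 (limma adjusted p = 0.270) and Stat6, the factor downstream of Il4ra, by -0.11 (0.658).

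Of 11 NF-kB and chemokine mRNA decay genes, all tested, 3 fell and 0 rose, where 8.3% of all genes tested fell and 5.91% rose. The median log2 difference was -0.50, against 0.02 over all genes tested. Those that fell were Nfkb1, an NF-kB subunit (-0.76, limma adjusted p = 0.0406), Tnfaip3, an inhibitor of NF-kB signalling (-0.83, 0.0391), and Zc3h12a, an RNase that degrades chemokine and cytokine mRNAs (-1.13, 0.0363). Zc3h12a was at 67.2, 37.1 and 82.6 FPKM in wild type, then 35.0, 18.7 and 28.5 FPKM in the knockout, without overlap. The inhibitor Nfkbia was at 940 ± 98.9 and 611 ± 54.1 FPKM (-0.62, limma adjusted p = 0.0550) and Nfkb2 differed by -0.30 (0.201). Zfp36, another mRNA decay factor, differed by -0.76 with overlapping groups (limma adjusted p = 0.119).

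Among 9 tested genes of a list on chemokine trimming and retention, 0 rose and 1 fell, where 5.91% of all genes tested rose and 8.3% fell. Mmp14, a membrane-bound matrix protease, fell from 68.1 ± 7.77 to 47.1 ± 4.98 FPKM (log2 -0.52, limma adjusted p = 0.0487). Mmp2, a protease that cleaves Ccl7, differed by 0.07 (limma adjusted p = 0.830). The heparan sulphate carriers lay on both sides of 0 and did not pass. Sdc4 differed by -0.53 (limma adjusted p = 0.0702), Gpc1 by -0.53 (0.0519), Sdc1 by -0.19 (0.488) and Sdc2 by 0.54 (0.0506). Dpp4, which clips the amino end of several CC chemokines, was at most 0.0987 FPKM. Of the 7 called genes in these lists, 0 passed after the trend was subtracted. The log2 difference of Nfkb1 was then -0.80, of Zc3h12a -0.96, of Tnfrsf1b -0.83, of Tnfaip3 -0.63 and of Mmp14 -0.34, while Il4ra went to -0.15 and Il13ra1 to 0.25. As deposited, 0 of the 7 passed without wild-type replicate 3, knockout replicate 1 or knockout replicate 2. Of all 11287 genes tested, 7, 88 and 209 passed without those libraries, so few genes of any kind did. With the trend removed, Nfkbia passed instead (-0.78, limma adjusted p = 0.0431).

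**Figure D4:**
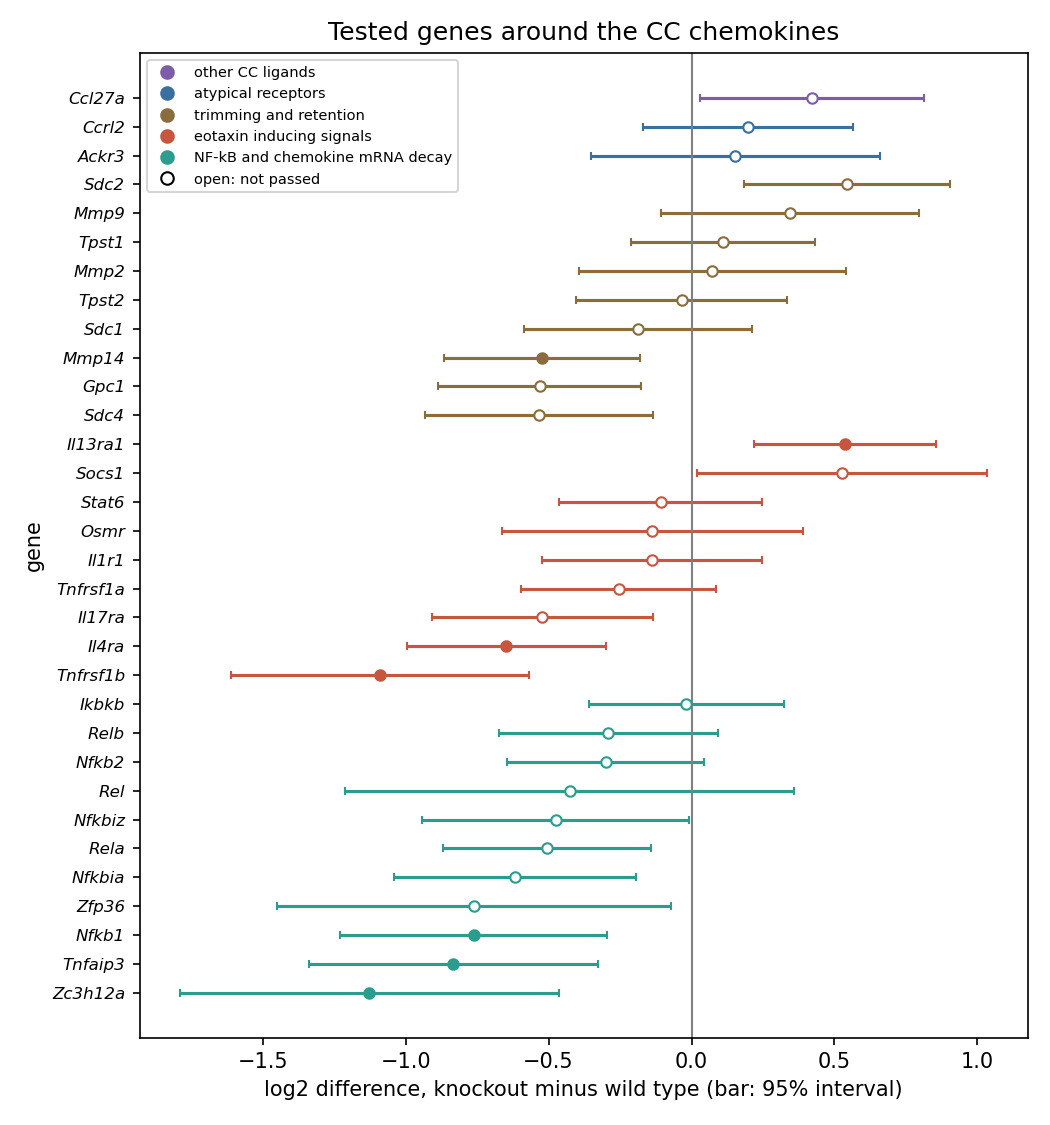
Log2 difference, knockout minus wild type, with 95% intervals, of the tested genes of 5 lists around the CC chemokines, on the log2(FPKM + 1) scale. Filled points passed at limma adjusted p under 0.05. Of the 11 genes of NF-kB and chemokine mRNA decay all estimates are below 0 and 3 passed, while eotaxin inducing signals lie on both sides.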

How the data were processed

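The authors deposited FPKM, a column for each library, beside each gene's length. Software listed in the submitters' processing notes, with no roles given, is DESeq2 1.20.0, featureCounts 1.5.0-p3, CASAVA 1.8 and HISAT2 2.0.5, on GRCm38 (mm10). Multiplying FPKM by length gave multiples of a library constant, so fragment numbers could be recovered (100% of values whole within 0.001 fragment).

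The test was limma 3.58.1 (R 4.3.3) on log2(FPKM + 1), group being its sole term, with a mean trend in the variance and two-sided p-values adjusted by Benjamini-Hochberg. It covered 11287 genes whose mean over the 6 libraries reached 1 FPKM. "Rose" and "fell" mean an adjusted p under 0.05. For the correction, a smooth surface over length and GC content (mgcv 1.9.3, basis size 30) was subtracted in each library, for 11269 genes. The fit was also run on simulated data, and the outcome is not reported here. Sequences were handled with Biopython 1.88.

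The members, lists and alternatives were chosen with earlier results of these data known. Genes named are the members, Npm1, pathway genes that passed, the 2 most abundant tested genes of each list, the 5 nearest to Ccl11, and markers that passed or were at 0. Stat6, Zfp36, Sdc1, Sdc2, Sdc4, Gpc1, Dpp4, Dcn, Col3a1 and Epcam were added after their values were seen.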

Additional observations from a re-analysis of the deposited data

How the results depend on the processing

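The count of changed genes was 1604 as reported. It was 961 after rescaling to TPM (26.1% of them higher against 41.6%, with the median of all genes shifted by -0.10), 5454 with array weights, 194 with the length and GC trend removed, and 0 with no filter, with 4543 of 24310 genes under 0.05 before adjustment in limma. Without wild-type replicates 1, 2 and 3 the count was 1369, 890 and 7. Without knockout replicates 1, 2 and 3 the count was 88, 209 and 2805. With the trend also removed the counts were 21, 533 and 5 without wild-type replicates 1, 2 and 3. They were 6, 6 and 305 without knockout replicates 1, 2 and 3. Of the members, 3 were higher; 0 were with no filter or with the trend removed, and 0 to 3 when a library was left out. The count of members lower was 0, but 1 with array weights (Ccl2) and 0 to 2 when a library was left out, with 2 without wild-type replicate 2 after trend removal. Ccl5, Ccl8 and Ccl11 stayed above 0 in all settings run (Ccl11 1.17 to 2.54). Ccl11 minus the median of the other tested members was 1.01 to 2.71 over 14 settings (exact permutation p 0.1 to 0.2). The 2.71 came with a filter of 5 FPKM, where that median was Ccl7. Ccl25 was at -0.22 with the trend removed, and leaving out wild-type replicates 1, 2 and 3 as well gave -0.35, -0.13 and -0.20, and knockout replicates 1, 2 and 3 gave -0.19, -0.26 and -0.21. Ccl9 ranged from -0.23 to 0.060 when a library was left out as deposited. The cause was not tested.

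Deviations of same-numbered libraries from their group means correlated at -0.19, 0.27 and -0.37 across genes, and those of unlike-numbered libraries at -0.40 to 0.42. With 3 libraries per group these values depend on each other and cannot settle whether replicate numbers pair the libraries. With the replicate block 822 genes changed, Ccl8 and Ccl11 passed and Ccl5 did not (adjusted p = 0.0576). With the block and the trend removed, 8 genes and 0 members changed and Ccl25 was at -0.22. Low members (7 to 8 fragments in Ccl17 and Ccl12) are limited by depth.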
